A study of Mus musculus with 6 samples.

Results

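The 10 genes examined here encode brakes on signalling by G-protein-coupled receptors: the regulators of G-protein signalling Rgs2, Rgs3, Rgs4, Rgs5, Rgs16 and Rgs17, the receptor kinases Grk5 and Grk6, and the arrestins Arrb1 and Arrb2. They were followed in primary mouse dermal fibroblasts cultured with and without endothelin 1 (Et1), a vasoactive peptide whose receptors belong to this class. The genes were taken by symbol and not by level: each probe set that the platform annotation pairs with exactly 1 symbol, equal to one of these names, was included, which gave 28 of 45037 probe sets, for 10 of 18193 genes. The cells grew out of explanted skin of newborn B6 mice of both sexes. They were labelled as 0 to 2 days old and at passage 6, whereas the series text gives an upper age of 3 days and a division into the cultures by passage 5. The 3 Et1 arrays hold RNA from cultures that received 100 nM synthetic peptide for 24 hours, and the 3 control arrays RNA from cultures in the same serum-containing medium with nothing added. The labels call the arrays biological replicates but do not name the pups behind each one, so p-values measure the spread between these arrays.

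A G-protein-coupled receptor switches on a G protein by loading its alpha subunit with GTP. RGS proteins speed up the hydrolysis of that GTP and so shorten the signal inside the cell, while receptor kinases (GRKs) phosphorylate the activated receptor and beta-arrestins then bind it, uncouple it from the G protein and help to internalise it. Endothelin receptors couple to Gq among other G proteins, and both kinds of brake act on them.

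The arrays report MAS5 signals, a linear brightness per probe set, scaled here so that all arrays had the same 2% trimmed mean of 139. Before scaling the trimmed means ran from 91.7 to 179. Signals are given in the order of the replicate numbers. Testing was limited to probe sets whose signal averaged at least 41.0 over the 6 arrays, the median of all probe sets. Of the 28, 20 passed, covering 9 of the 10 genes, and 8 did not, among them the 1 probe set of Arrb1. By the poly(A) spike-in controls the arrays divided into a low and a high set of 3 each. In the low set, with a mean log2 spike-in signal of 3.45 to 3.57, were controls 1 and 2 with Et1 array 2; in the high set, at 4.75 to 5.64, were control 3 with Et1 arrays 1 and 3. The 3' to 5' ratio of the beta-actin control probe sets, a measure of RNA integrity, spanned 1.18 to 1.19 over the controls and 1.15 to 1.23 over the Et1 arrays. Of 12 dermal fibroblast markers 11 reached the filter. In Et1 arrays 11 of the 12 had the lower mean (list median -0.51 on the log2 scale), and 1, Prrx1, a transcription factor, fell (log2 fold change -0.92, limma adjusted p = 0.0307). Their summed signals overlapped, at 24354 to 38686 over the controls and 16998 to 29093 over the Et1 arrays.

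The upstream windows of Rgs4, of 3 other RGS genes on chromosome 1 and of Grk5 are shown because the results below turn on these genes: Rgs4 and Grk5 had the largest differences among the tested probe sets, Rgs2 and Rgs16 each had a probe set with higher signals in all Et1 arrays, and Rgs5 is the neighbour of Rgs4, with no annotated gene lying wholly between them. The start sites of Rgs4 and Rgs5 lie 92141 bases apart and the genes are transcribed towards each other. Each sequence is the 250 bases before the annotated start, from RefSeq (GRCm38.p6), read 5′ to 3′ on the strand of the gene, with matches to the motifs searched in capitals. The windows are chr1:169747643-169747892 on the minus strand for Rgs4, chr1:169655251-169655500 on the plus strand for Rgs5, chr1:144004150-144004399 on the minus strand for Rgs2, chr1:153740103-153740352 on the plus strand for Rgs16 and chr19:60889499-60889748 on the plus strand for Grk5.
Rgs4: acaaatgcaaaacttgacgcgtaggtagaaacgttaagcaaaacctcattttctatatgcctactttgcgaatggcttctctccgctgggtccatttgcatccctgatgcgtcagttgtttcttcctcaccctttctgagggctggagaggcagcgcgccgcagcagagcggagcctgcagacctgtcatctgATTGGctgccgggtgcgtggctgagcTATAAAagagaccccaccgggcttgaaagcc
Rgs5: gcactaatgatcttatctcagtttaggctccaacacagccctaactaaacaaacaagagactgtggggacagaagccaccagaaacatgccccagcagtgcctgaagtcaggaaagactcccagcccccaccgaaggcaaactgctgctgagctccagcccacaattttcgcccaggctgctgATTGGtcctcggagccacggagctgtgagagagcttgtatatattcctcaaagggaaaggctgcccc
Rgs2: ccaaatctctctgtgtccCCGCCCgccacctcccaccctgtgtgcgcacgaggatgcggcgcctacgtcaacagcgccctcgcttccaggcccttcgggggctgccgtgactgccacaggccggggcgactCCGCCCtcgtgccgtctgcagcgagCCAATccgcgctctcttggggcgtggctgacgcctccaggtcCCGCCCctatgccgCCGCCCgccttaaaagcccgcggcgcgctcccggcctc
Rgs16: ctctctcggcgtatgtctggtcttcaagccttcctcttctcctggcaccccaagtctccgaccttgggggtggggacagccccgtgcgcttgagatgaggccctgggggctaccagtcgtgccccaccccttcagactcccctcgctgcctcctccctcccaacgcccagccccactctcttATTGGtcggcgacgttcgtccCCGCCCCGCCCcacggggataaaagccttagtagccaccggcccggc
Grk5: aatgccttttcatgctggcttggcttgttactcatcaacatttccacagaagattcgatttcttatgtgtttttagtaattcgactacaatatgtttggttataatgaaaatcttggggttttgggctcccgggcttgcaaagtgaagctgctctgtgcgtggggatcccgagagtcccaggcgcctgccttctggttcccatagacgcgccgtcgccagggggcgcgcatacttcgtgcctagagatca
On both strands 6 motifs were searched: the TATA box as TATAAA, the CCAAT box as CCAAT, the GC box as GGGCGG, the cyclic AMP response element as TGACGTCA, the AP-1 site as TGANTCA and the E box as CACGTG. Rgs4 had a TATA box with its first base 31 bases before the start, and no other window of the 5 held that motif. On either strand and at any position it was found in 12.4% of 32851 windows of the same length. A CCAAT box stood 57 bases before the start in Rgs4, 67 in Rgs5, 94 in Rgs2 and 68 in Rgs16, inverted in all but Rgs2, and 33.8% of all windows held one. GC boxes matched in Rgs2 and in Rgs16, whose 2 matches overlap, and in 32.7% of all windows. The response element, the AP-1 site and the E box matched none of the 5, against 1.55%, 6.75% and 6.02% of all windows, and the Grk5 window held none of the 6 motifs. Among the other members, Rgs3 had the TATA box letters in each of its windows, 100 and 177 bases before the start and so farther away than in Rgs4. Grk6 had a CCAAT box in each window, and Rgs17 an AP-1 site. GC boxes also matched in Rgs17, in some windows of Grk6 and in the Rgs3 window with the TATA box letters at 177 bases. Entries were found for 8 of the 10 genes, in 11 windows, and not for Arrb1 and Arrb2.

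Rgs4 carried the largest difference of the 10 genes. It encodes a small RGS protein that acts on Gi and Gq alpha subunits. On probe set 1416286_at its signals were 109, 99.9 and 97.8 on control arrays and 10.9, 6.65 and 23.2 on Et1 arrays. The 3 Et1 signals lay far below all 3 control signals, and the control signals lay close together. Means were 102 ± 5.66 in control and 13.6 ± 8.60 in Et1 arrays (SD, n = 3), an 8.58-fold ratio of the geometric means. Among all 22519 tested probe sets this difference ranked 4 by size, yet it missed limma's threshold of 0.05 (log2 fold change -3.10, 95% interval -4.24 to -1.97, limma adjusted p = 0.0503). The probe set reached the filter through its control signals, since the Et1 mean lay below 41.0. Adding 50 to every signal shrank the difference to -1.27 on the log2 scale and moved it past the threshold (limma adjusted p = 0.0189).

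The difference in 1416286_at was -3.97 within the low and -2.62 within the high spike-in set. Blocking on that set moved it past the threshold (log2 fold change -3.30, limma adjusted p = 0.00796), and so did blocking on the replicate number (limma adjusted p = 0.0245). The series text says that cells were divided between treated and control cultures, but not that equal numbers mark one division. With 1 array left out at a time the log2 fold change lay between -3.58 and -2.68 and the limma adjusted p between 0.0506 and 0.342.

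The other Rgs4 probe sets had the same direction and smaller differences. Probe set 1416287_at read 88.4, 102 and 78.2 on control arrays and 74.6, 16.4 and 43.7 on Et1 arrays. Here too the groups did not overlap, but Et1 array 1 came close to control 3 while Et1 array 2 was far lower (log2 fold change -1.24, 95% interval -2.37 to -0.11, limma adjusted p = 0.364). Without Et1 array 2 the log2 fold change was -0.64, and with each of the others left out it lay between -1.73 and -1.14. On probe set 1448285_at, below the filter with a mean of 33.3, the signals were 39.8, 37.5 and 63.7 on control arrays and 2.72, 21.1 and 35.0 on Et1 arrays. All 3 Et1 signals were again the lowest, with a log2 difference of -1.85 and, in limma without a filter, a 95% interval of -3.81 to 0.10 (adjusted p = 0.599). The annotation gives all 3 probe sets the same RefSeq transcript.

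**Figure D1:**
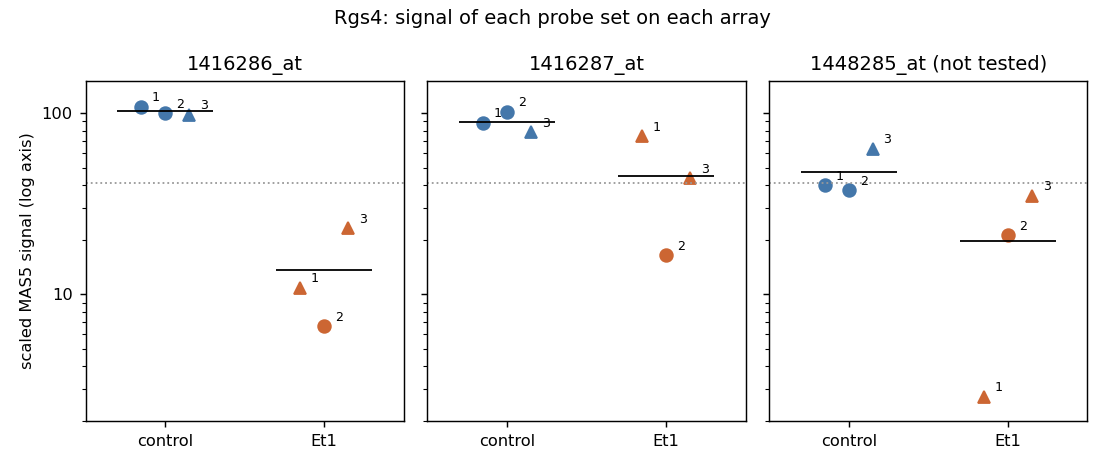
Scaled MAS5 signal of the 3 Rgs4 probe sets on each array (log axis); points are single arrays with their replicate number, circles the low and triangles the high spike-in set, bars the group means, and the dotted line the filter at 41.0. The Et1 arrays lie below the control arrays on every probe set, at 6.65 to 23.2 against 97.8 to 109 on 1416286_at.

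Markers of other cells were read beside these values because Rgs4 and Rgs5 are also expressed by mural cells of vessels. In bulk RNA fewer cells of a type and less RNA per cell cannot be told apart. Of 10 pericyte and smooth muscle markers 6 reached the filter, 8 had lower means in Et1 arrays, and 0 passed the threshold. Their summed signal was 2432 to 3623 over the controls and 1237 to 1916 over the Et1 arrays, with no overlap. Most of that sum came from Cnn1, a calponin of contractile cells, which just missed the threshold (log2 fold change -1.16, limma adjusted p = 0.051). Without Cnn1, a choice made after seeing the data, the sums overlapped (707 to 1331 against 511 to 848). The pericyte markers Kcnj8, Abcc9, Ndufa4l2 and Higd1b were below the filter, and none of the 10 was at 0. The part of such cells, or of the lower fibroblast markers, in the Rgs4 difference was not tested. The sums of 3 other lists did not overlap, and each did when the gene adding most to its difference was left out in the same way. Adipocyte markers summed to 811 to 1075 over the controls and 593 to 770.4 over the Et1 arrays and, without Fabp4, the called marker (log2 fold change -1.44, limma adjusted p = 0.0258), to 525 to 816 against 471 to 666, with a list median of -0.050. Nerve and Schwann cell markers summed to 317 to 409 over the controls and 253 to 315 over the Et1 arrays and, without S100b, to 262 to 318 against 204 to 264. Skeletal muscle markers summed to 2425 to 2690.0 over the controls and 2854 to 3112 over the Et1 arrays and, without Acta1, to 229 to 283 against 237 to 356. Sums for keratinocyte, leukocyte, melanocyte and endothelial markers overlapped, the last only with Kdr included (without it 186 to 194 against 199 to 244).

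Rgs2, an RGS protein that prefers Gq, had higher means in Et1 arrays on its 3 tested probe sets, without passing the test. Probe set 1419247_at read 48.8, 52.6 and 60.4 on control arrays and 68.9, 77.6 and 73.6 on Et1 arrays. All Et1 signals exceeded all control signals, by a modest margin (log2 fold change 0.45, 95% interval -0.06 to 0.96, limma adjusted p = 0.463). For 1419248_at the signals were 51.1, 42.3 and 75.8 on control arrays and 83.4, 44.2 and 99.0 on Et1 arrays, and for 1447830_s_at 31.1, 32.8 and 48.4 on control arrays and 62.4, 39.9 and 64.4 on Et1 arrays. On both of these every array of the high spike-in set lay above every array of the low set, and Et1 and control overlapped (log2 fold changes 0.38 and 0.57, limma adjusted p = 0.708 and 0.553). Blocked on the set they were 0.094 and 0.35. The last, 1443250_at, was below the filter and had the opposite order of means, with signals of 41.0, 46.3 and 44.2 on control arrays and 49.4, 19.3 and 20.0 on Et1 arrays. The filter thus took part in the common direction of the tested probe sets. Probe set 1447830_s_at reached it through its Et1 arrays (mean 37.4 in control and 55.5 in Et1 arrays). Through its Et1 arrays 1443250_at missed it (mean 43.8 in control and 29.5 in Et1 arrays).

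Rgs16, whose protein turns off Gi and Gq alpha subunits, had all 3 probe sets tested. On 1426037_a_at the signals were 584, 377 and 498 on control arrays and 647, 707 and 599 on Et1 arrays. The 3 Et1 signals lay above the 3 controls there, the lowest Et1 array only just above control 1 (log2 fold change 0.44, 95% interval 0.014 to 0.87, limma adjusted p = 0.393). Those on 1451452_a_at were 647, 575 and 321 on control arrays and 459, 806 and 389.6 on Et1 arrays, and here the arrays ordered by spike-in set, with the high set lower. The opposite held on 1455265_a_at, at 775, 719 and 866 on control arrays and 1139, 660.5 and 955 on Et1 arrays, where the high set was the higher. Log2 fold changes on these were 0.09 and 0.19 (limma adjusted p = 0.937 and 0.748). Blocked on the set, 1451452_a_at stood at 0.40 (95% interval 0.14 to 0.66, limma adjusted p = 0.0914).

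Rgs3, a relative made in long and short isoforms, gave no common direction over its probe sets. On 1425296_a_at it read 179, 226 and 154 on control arrays and 134, 138 and 112 on Et1 arrays. All Et1 signals were below all control signals, with a difference that did not pass (log2 fold change -0.52, 95% interval -0.97 to -0.08, limma adjusted p = 0.332). Probe set 1425701_a_at read 53.3, 39.2 and 64.2 on control arrays and 40.8, 53.0 and 19.2 on Et1 arrays. Probe set 1449516_a_at read 61.5, 84.4 and 65.7 on control arrays and 86.5, 43.6 and 99.3 on Et1 arrays. Both overlapped between the groups, with log2 fold changes of -0.56 and 0.045. Their direction turned between the spike-in sets: 1425701_a_at was 0.21 within the low and -1.20 within the high spike-in set, and 1449516_a_at was -0.73 within the low and 0.50 within the high spike-in set. The last, 1454026_a_at, ranged from 1.78 to 8.08, far below the filter.

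Rgs5, best known from pericytes and vascular smooth muscle, was mostly below the filter. Of its 4 probe sets 3 did not reach it: 1417466_at ranged from 7.36 to 22.0, 1420941_at from 2.42 to 11.8 and 1420942_s_at from 3.54 to 11.4. The tested one, 1420940_x_at, whose suffix marks probes that may bind other transcripts, read 62.2, 55.7 and 33.7 on control arrays and 67.0, 33.3 and 60.0 on Et1 arrays. The groups overlapped (log2 fold change 0.066, 95% interval -0.80 to 0.93, limma adjusted p = 0.96).

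Rgs17 belongs to another RGS subfamily, whose proteins act on Gi and Gz alpha subunits. On 1439779_at it read 59.4, 47.6 and 47.3 on control arrays and 57.1, 65.2 and 58.5 on Et1 arrays, and on 1450693_at 47.5, 51.5 and 71.2 on control arrays and 63.6, 54.4 and 82.7 on Et1 arrays. Both overlapped between the groups, with log2 fold changes of 0.23 and 0.24 (limma adjusted p = 0.738 and 0.763).

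Grk5, a membrane-bound kinase that calmodulin inhibits, had the largest difference among the tested probe sets of genes other than Rgs4. On 1449514_at it read 293, 328 and 296 on control arrays and 162, 216 and 204 on Et1 arrays. The groups were clearly apart, each Et1 signal being below each control signal, with means of 305 ± 19.7 in control and 194 ± 28.4 in Et1 arrays (SD, n = 3). In limma the difference did not pass (log2 fold change -0.66, 95% interval -1.05 to -0.28, limma adjusted p = 0.159). It was -0.52 within the low and -0.70 within the high spike-in set, and blocked on the set it passed, at -0.61 (95% interval -0.92 to -0.29, limma adjusted p = 0.0443). The other Grk5 probe set, 1436672_at, was below the filter at 3.47 to 27.7, with overlapping groups.

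Grk6, a kinase of the same subfamily, overlapped between the groups on its 3 probe sets. Signals on 1437436_s_at were 509, 374 and 521 on control arrays and 472, 369 and 463 on Et1 arrays, with a log2 fold change of -0.10. Those on 1450480_a_at were 293, 307 and 183 on control arrays and 135, 276 and 159.8 on Et1 arrays, and those on 1451672_at 489, 589.7 and 343 on control arrays and 339, 454 and 294 on Et1 arrays. On the last 2 every array of the high spike-in set lay below every array of the low set. Their log2 fold changes of -0.49 and -0.38 (limma adjusted p = 0.561 and 0.573) became -0.22 and -0.18 with the block. A difference in response between Grk5 and Grk6 was not tested.

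Neither beta-arrestin separated the groups. Arrb2, which binds phosphorylated receptors as Arrb1 does, read 70.1, 67.5 and 55.2 on control arrays and 65.7, 73.0 and 71.1 on Et1 arrays on 1426239_s_at. On 1451987_at the signals were 48.1, 74.8 and 33.6 on control arrays and 43.6, 87.1 and 58.8 on Et1 arrays. Log2 fold changes were 0.13 (95% interval -0.37 to 0.62) and 0.30 (95% interval -0.57 to 1.16). Arrb1 was below the filter, at 30.1, 53.4 and 39.1 on control arrays and 31.6, 26.0 and 26.7 on Et1 arrays on 1460444_at. Controls 2 and 3 gave its highest signals, while control 1 lay within the range of the Et1 arrays.

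**Figure D2:**
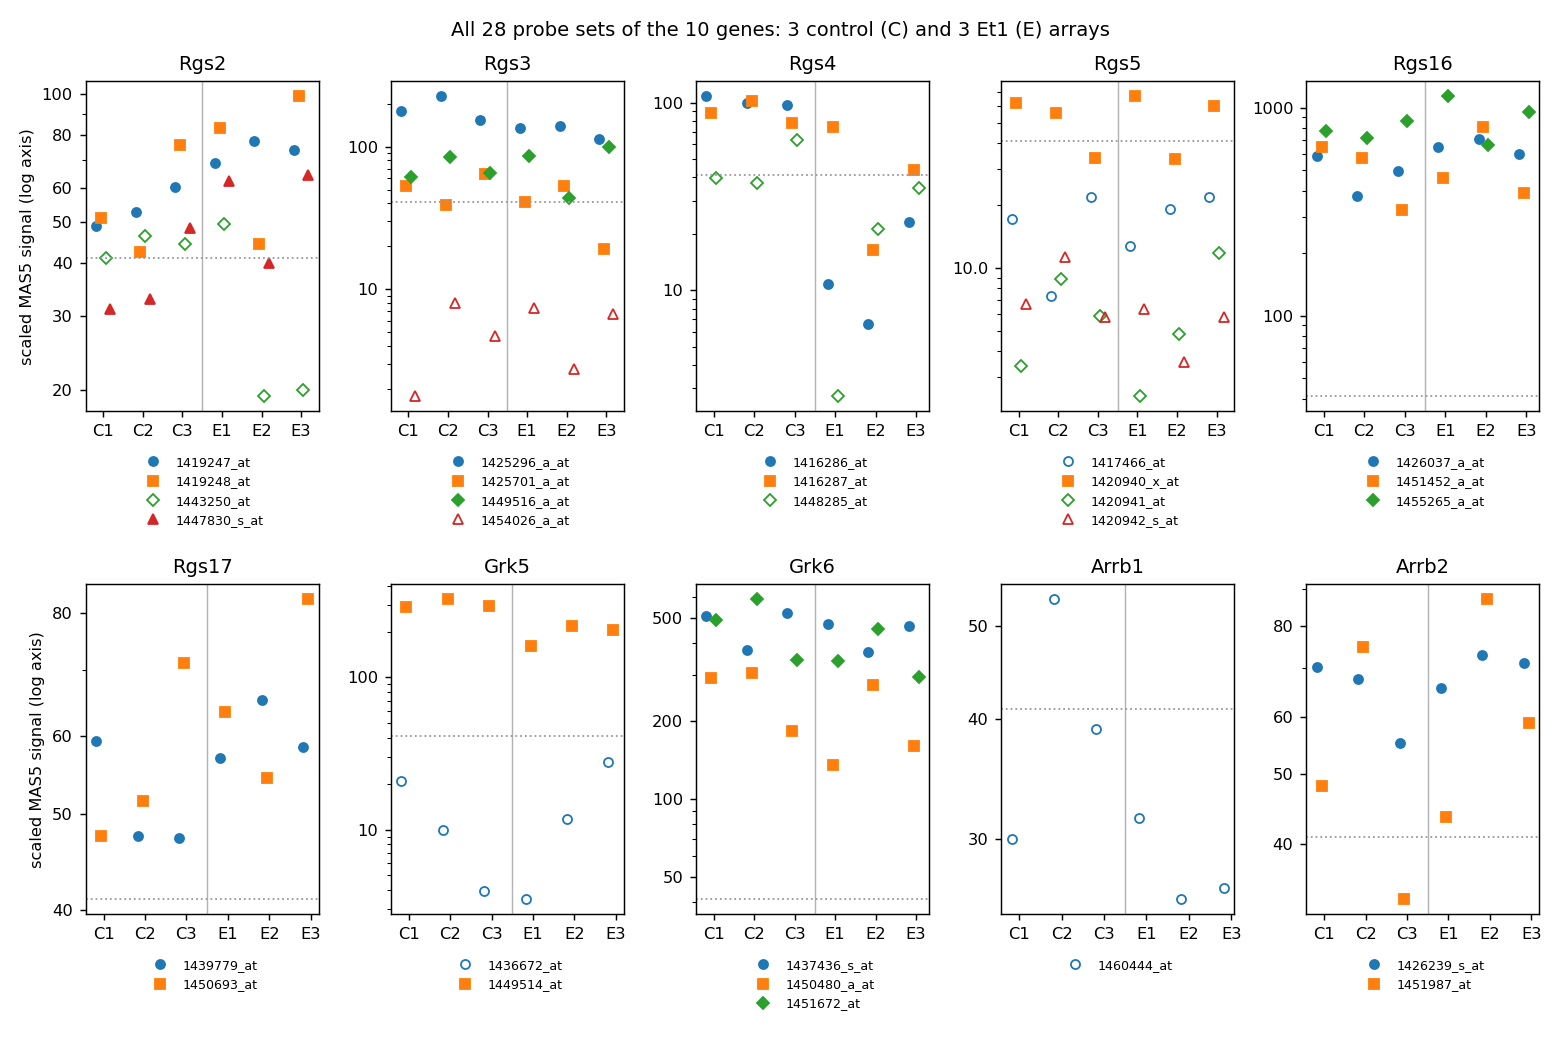
Scaled MAS5 signals (log axis, own range per panel) of all 28 probe sets of the 10 genes on 3 control (C) and 3 Et1 (E) arrays; open symbols are probe sets below the filter, which the dotted line marks at 41.0. Groups stand apart on the Rgs4 probe sets, on the tested Grk5 probe set and on 1425296_a_at of Rgs3, with Et1 lower. They also do on 1419247_at of Rgs2 and 1426037_a_at of Rgs16, with Et1 higher. They overlap on all probe sets of Grk6, Rgs5, Rgs17, Arrb1 and Arrb2.

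Of the 20 tested probe sets 0 passed limma's adjusted p of 0.05, where 0.346% of all 22519 did (0.0977% higher and 0.249% lower). At an unadjusted p under 0.05 there were 5, against 12.3% of all. The one with the higher mean in Et1 arrays was 1426037_a_at of Rgs16 (5.94% of all were higher). Those with the lower mean were both tested probe sets of Rgs4, 1425296_a_at of Rgs3 and 1449514_at of Grk5 (6.38% of all were lower). The groups did not overlap for 6 of the 20, against 17.6% of all: 2 with the Et1 signals above (9.47% of all) and 4 with them below (8.11% of all). The median log2 fold change was 0.078 for the 20 and 0.032 for all, and 8 had lower means, against 45.9% of all. Several of the 20 share a gene, and these shares are a description only. For 12 the 95% interval lay within 1 log2 unit of 0.

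**Figure D3:**
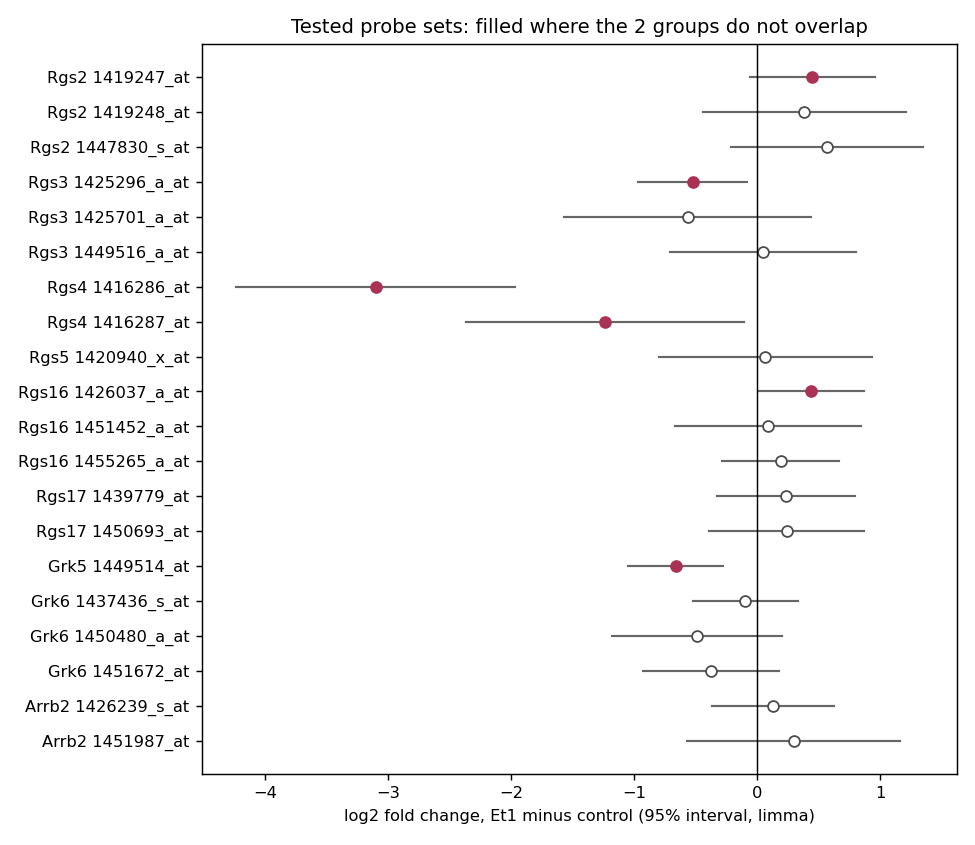
Log2 fold change (Et1 minus control) of the 20 tested probe sets with limma's 95% interval; filled points mark the 6 whose groups do not overlap. The point for Rgs4 1416286_at, at -3.10, stands apart, and the others lie between -1.24 and 0.57.

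**Figure D4:**
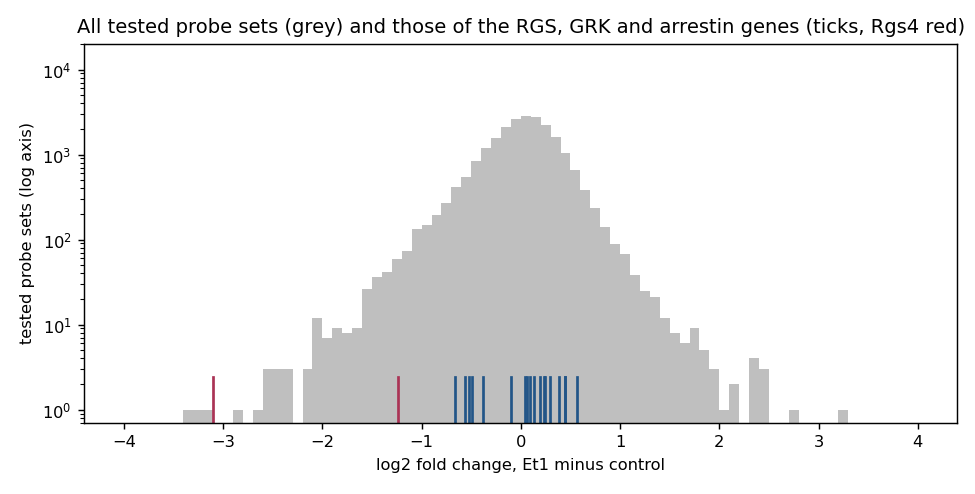
Distribution of log2 fold changes (Et1 minus control) over all 22519 tested probe sets (grey bars, number on a log axis) with ticks for the 20 probe sets of these genes, Rgs4 in red. Apart from Rgs4 the ticks lie between -0.66 and 0.57, within the body of the distribution.

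The spike-in sets divided these probe sets about as often as the array at large. For 7 of the 20 the high-set arrays lay all above (4) or all below (3) the low-set arrays, against 32.8% of all tested probe sets. The division ran both ways within a gene: with the group in the fit, high minus low was -0.93 for 1451452_a_at and 0.44 for 1455265_a_at of Rgs16. For Rgs4 it was 0.58 on 1416286_at and 0.76 on 1416287_at. Blocked on the set, limma called 2 of the 20, 1416286_at of Rgs4 and 1449514_at of Grk5, both lower, and 3.85% of all. Blocked on the replicate number it called 1, 1416286_at, and 2.52% of all. Et1 minus control had the same sign within both sets for 15 of the 20, each set holding 1 or 2 arrays a group. The share over all tested probe sets was not computed and several of the 15 belong to the same gene, so this count is a description only.

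**Figure D5:**
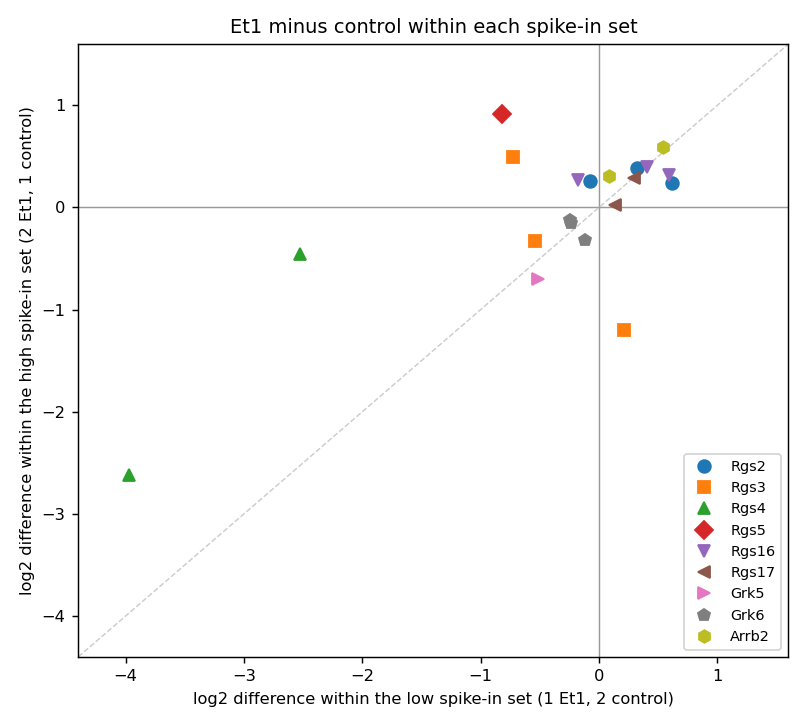
Log2 difference of Et1 minus control within the low (x axis, 1 Et1 and 2 control arrays) and the high (y axis, 2 Et1 and 1 control array) spike-in set for the 20 tested probe sets, with the line of equality dashed. Both Rgs4 probe sets are below 0 in both sets, 1416286_at at -3.97 and -2.62, and the sign turns for 2 probe sets of Rgs3 and 1 each of Rgs2, Rgs5 and Rgs16.

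Further genes of receptor control were read from the tested probe set with the highest mean of each gene. Over all 11666 genes so tested limma called 0.411% at an adjusted p of 0.05, and 13.5% had an unadjusted p under 0.05 (6.93% higher and 6.53% lower), with a median log2 fold change of 0.046. Of 12 other tested genes with an RGS domain 0 passed and 0 had an unadjusted p under 0.05, with a median of -0.07 (-0.13 to -0.016 under the other settings). The smallest p was that of Rgs10, which acts on Gi alpha subunits, at 197 ± 16.4 in control and 163 ± 16.3 in Et1 arrays (SD, n = 3; log2 fold change -0.28, limma adjusted p = 0.54). Of 6 other tested GRK and arrestin genes 0 passed and 1 was higher unadjusted, with a median of 0.29 (0.20 to 0.45 under the other settings). This was Arrdc4, an alpha-arrestin, at 71.5 ± 0.524 in control and 119 ± 5.61 in Et1 arrays (SD, n = 3; log2 fold change 0.73, limma adjusted p = 0.134). Only 1 of the 6 was a GRK, so the median describes mainly arrestins and their relatives.

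Among 9 tested partners of RGS proteins and GoLoco proteins, with a median of 0.17 (-0.063 to 0.30 under the other settings), 0 passed, and unadjusted 1 was higher and 2 were lower. Gpsm2, which holds Gi alpha subunits in their GDP form, stood at 131 ± 10.6 in control and 79.1 ± 5.22 in Et1 arrays (SD, n = 3; log2 fold change -0.73, limma adjusted p = 0.137). Rgs7bp, which anchors RGS proteins at the membrane, stood at 70.4 ± 13.4 in control and 115 ± 10.3 in Et1 arrays (SD, n = 3; log2 fold change 0.72, limma adjusted p = 0.226). Pcp2, another GoLoco protein, stood at 57.6 ± 2.14 in control and 35.7 ± 8.24 in Et1 arrays (SD, n = 3; log2 fold change -0.72, limma adjusted p = 0.4). In the Arg/N-degron pathway, which degrades the Rgs4, Rgs5 and Rgs16 proteins, 0 of 8 tested genes passed, 0 had an unadjusted p under 0.05, and the median was 0.02 (-0.032 to 0.085 under the other settings). Ubr2, a ubiquitin ligase that recognises such N-termini, had the smallest p, at 222 ± 52.4 in control and 293 ± 78.7 in Et1 arrays (SD, n = 3; log2 fold change 0.39, limma adjusted p = 0.557).

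No tested G protein subunit gene passed: of 17, 0 passed and 0 had an unadjusted p under 0.05, with a median of -0.07 (-0.12 to -0.013 under the other settings). Gng11, a gamma subunit, had the smallest p, at 639.7 ± 99.1 in control and 809.9 ± 123 in Et1 arrays (SD, n = 3; log2 fold change 0.34, limma adjusted p = 0.485). Gnai2, the alpha subunit of a Gi protein, was 2379 ± 752 in control and 1677 ± 727 in Et1 arrays (SD, n = 3; log2 fold change -0.53, limma adjusted p = 0.559), with wide spread within both groups. The 3 RhoGEFs with an RGS-like domain had 0 past the threshold, 0 at an unadjusted p under 0.05 and a median of -0.10 (-0.16 to 0.044 under the other settings). Of 20 genes of receptor endocytosis and recycling 0 passed, and unadjusted 2 were higher and 1 was lower, with a median of -0.13 (-0.23 to -0.082 under the other settings). Stam, an endosomal sorting protein, was 447 ± 112 in control and 802 ± 157 in Et1 arrays (SD, n = 3; log2 fold change 0.85, limma adjusted p = 0.159). It was the 1 gene of these lists that passed when blocked on the spike-in set (log2 fold change 0.72, limma adjusted p = 0.0305) or on the replicate number (limma adjusted p = 0.0172). Mdm2, a ubiquitin ligase that also modifies arrestin, was 803 ± 40.4 in control and 1058 ± 36.8 in Et1 arrays (SD, n = 3; log2 fold change 0.40, limma adjusted p = 0.264). Cltc, the clathrin heavy chain, was 2792 ± 147 in control and 2307 ± 162 in Et1 arrays (SD, n = 3; log2 fold change -0.28, limma adjusted p = 0.403).

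The genes closest to Rgs4 in profile over the 6 arrays were ranked by the root mean square difference of centred log2 signals. Signals were centred but not scaled, so genes near a probe set with a large difference had to differ much as well. Nearest to 1416286_at were the cytokine Il6, the chemokine Cxcl5 and the fatty acid carrier Fabp4, at 0.569, 0.606 and 0.618 log2 units. Their log2 fold changes were -2.10, -3.39 and -2.50. Fabp4 is also one of the adipocyte markers. Nearest to 1416287_at were Spon2, a secreted matrix protein, 1810021B22Rik and Gm30873, at 0.213, 0.238 and 0.299 log2 units. Like 1416287_at, each had its lowest signal on Et1 array 2, at 12.9, 11.8 and 15.5. The nearest genes thus differed between the Rgs4 probe sets, and all rest on the same 6 arrays.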

How the data were processed

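Total RNA from 6 cultures was labelled with biotin and hybridised to Affymetrix Mouse430_2 arrays. The series table holds 1 deposited linear intensity per probe set and array. MAS5 produced it, per the submitters' processing notes, with version and scaling not given in the sources used here. No detection calls were used. Of 45101 rows, 64 Affymetrix controls were left out. The 4 zero values took the smallest positive value of their array, arrays were scaled to the geometric mean of their 2% trimmed means, and log2 was taken with no pseudocount. Fold changes of dim probe sets depend on background. Names came from the platform annotation: 34945 probe sets had 1 symbol, 932 several and 9160 none.

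Groups came from the labels. Probe sets with a mean signal of at least 41.0 (22519) entered limma 3.58.1 (R 4.3.3), using lmFit and a trended eBayes without a block, and p-values were adjusted by Benjamini-Hochberg over these. The precision rests on 3 arrays a group. The code of the fit was run on simulated normal values, independent between arrays and with no spike-in set difference. That run checked the code and not the calls on these data. Members, gene lists and settings were chosen with earlier results of these data known, including the spike-in set as a block, placed at the largest gap between arrays. Named were all members, list genes past the threshold, at most 4 genes of each list by smallest p, and the 3 genes nearest to each tested Rgs4 probe set. Of the lists' genes, those without a single-symbol probe set were not analysed here.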

Additional observations from a re-analysis of the deposited data

How the results depend on the processing

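Each tested probe set was fitted under up to 14 other settings, 268 values in all: 251 kept their direction and side of the threshold, 6 passed it where the reported value did not, and 11, on 4 probe sets, changed sign; 16 probe sets kept their sign throughout. Rgs4 1416286_at passed with quantile normalization (-3.13), centring on the median (-3.15), 50 added before log2 (-1.27), the replicate block (-3.10) and the spike-in block (-3.30). It did not pass with no filter (limma adjusted p = 0.0733) or with no intensity trend (limma adjusted p = 0.0832). Grk5 1449514_at passed with the spike-in block (-0.61). The count of members past the threshold, reported as 0, was thus 1 with quantile normalization, 1 with centring and 1 with 50 added. It was 1 with the replicate block, 2 with the spike-in block and 0 with each array left out. In the same order 0.377%, 0.195%, 0.377%, 2.52% and 3.85% of all tested probe sets passed, and 0.0178% to 1.02% with an array left out. The member count stayed 0 with no filter, with the filter at the 75th percentile and with no intensity trend. There 0.0888%, 1% and 0.0311% of all tested probe sets passed. Members with no overlap numbered 3 at a filter at the 75th percentile, which kept 8 of the probe sets, against 6. They numbered 5 with quantile normalization, 4 with centring and 7 with no filter. The shares over all probe sets under these other settings were not computed, so these counts are a description only. Sign changes were to -0.0076 (centring) and -0.11 (spike-in block) for Rgs3 1449516_a_at. With 1 array left out its values ran from -0.19 to 0.41, those of Rgs5 1420940_x_at from -0.20 to 0.38, of Rgs16 1451452_a_at from -0.22 to 0.30 and of Grk6 1437436_s_at from -0.25 to 0.016. Over all probe sets 78 passed (22 higher). The count was 44 (7 higher) with centring on the median, 40 with no filter, 7 with no intensity trend, 567 with the replicate block and 868 with the spike-in block. Leaving out a control gave 4 (array 1), 4 (array 2) or 229 (array 3) and leaving out an Et1 array 10 (array 1), 46 (array 2) or 6 (array 3). Of the other lists' genes 1, Stam, passed with the replicate block and 1, Stam, with the spike-in block. The causes were not tested. The replicate numbers were not shown to pair the arrays: the correlations of same-numbered arrays' deviations were -0.12, 0.44 and 0.45. Et1 replicates 1, 2 and 3 had their highest correlation with control replicates 3, 2 and 3, each within the same spike-in set. Precision rests on 3 arrays a group, and the 8 probe sets under the filter were not tested.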
